A study of Mus musculus with 36 samples.

Results

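The sites described here were the positions on mRNAs where ribosome footprints piled up repeatedly in the pellet of a sucrose gradient of mouse brain and where no such pile-up was called in the lighter polysome fraction. Peak middles of the first WT and the first FMR1-KO pellet library were taken as the start. A middle was kept if at least 4 of the 6 pellet libraries held a peak within 6 nt and none of 5 fraction 5/6 libraries did, and kept middles within 6 nt of each other were merged. Of 67783 starting middles, 5757 recurred in at least 4 pellet libraries and 956 of these had no fraction 5/6 peak, which merged to 747 sites on 588 transcripts of as many genes. The other recurrent positions gave 3332 merged sites with a peak in 1 to 5 fraction 5/6 libraries (called shared sites below), of which 305 had a peak in all 5. The sites were chosen by the called peaks of the standard pellet and fraction 5/6 libraries, so the presence and absence of peaks, and the heights in these fractions, are descriptions without a test between the fractions.

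The study prepared ribosomes from pooled whole brains, 10 per preparation, of C57BL/6 wild-type (WT) and FMR1-KO mice at postnatal day 5, the FMR1-KO mice lacking the protein FMRP. After RNase I digestion, ribosome-protected fragments (RPFs) were sequenced from the gradient pellet, which the labels call granule, and from fraction 5/6, which they call polysome, with 3 libraries per genotype and fraction. The libraries labelled M-protocol were taken as the standard nuclease preparation, and a second set, with 3 libraries for each of the same 4 groups, as the low nuclease preparation, in which digestion was weaker and fragments stayed longer. The labels name homogenization buffers with 10 and 2.5 mM MgCl2 and tie neither to a library, so digestion and buffer cannot be told apart between the preparations. Called peaks were used from the 12 standard RPF libraries, and gene counts from these, the 12 low nuclease RPF libraries and 12 total RNA libraries. Since the tissue was whole brain, more cells of a type and more RNA per cell cannot be told apart in any gene count. The p-values measure the spread between preparations.

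A library that went against its label was left out by the rule. In the library labelled WT fraction 5/6 replicate 3, Fmr1 stood at 1.71 counts scaled to the library total (CPM), against 50.1 and 28.0 CPM in the other WT fraction 5/6 libraries and 2.82, 3.30 and 6.80 CPM in the FMR1-KO ones. In the WT pellet libraries Fmr1 ranged from 35.1 to 37.8 CPM and in the FMR1-KO pellet libraries from 1.75 to 2.59 CPM. Total counts ran from 6765065 to 40174168 in the standard RPF libraries, of which 36.7 to 63.4% lay on 1 gene, Cdk8, and from 23634940 to 62310787 in the low nuclease ones. Over the 6 pellet libraries, summed neuronal markers (Tubb3, Map2, Snap25, Syn1, Rbfox3) stood at 1650 to 3969 CPM and erythroid markers at 0.93 to 4.88 CPM. The number of called peaks was 18652 to 36435 in a pellet library and 11389 to 30153 in the 5 fraction 5/6 libraries.

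Ribosomes on an mRNA normally move codon by codon, and a ribosome that pauses or stalls protects the same stretch of mRNA in many cells, which appears as a peak of footprints. In developing neurons, stalled polysomes are packed into RNA granules, which carry mRNAs along neurites and sediment to the bottom of a gradient. FMRP, whose loss causes fragile X syndrome, binds mRNAs and ribosomes and is found in these granules.

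Of the 747 sites, 15 had a peak in all 6 pellet libraries, and the sequence around 14 of them is shown because these were the most repeatable positions. Each line gives 27 nt of coding sequence, 5′ to 3′ on the mRNA strand, with the codon of the peak middle as the fifth of 9 codons. The capitals mark codons for aspartate or glutamate, the acidic residues, which all start with GA. Sequences and coordinates are of GRCm38 with GENCODE M21 models, and a span longer than 27 nt holds an intron.
Rab5c codon 147, chr11:100716840-100717856, minus strand, exons 4 to 5 of 6: gctgtgGAGtttcagGAAgcacaagcc
Mapre1 codon 86, chr2:153756053-153757927, plus strand, exons 3 to 4 of 7: ttcaagaggatgggcgttGACaaaata
Apc2 codon 1577, chr10:80313830-80313856, plus strand, exon 15 of 15: cccagactgatcgtgGATGAGaccccg
Mtss1 codon 77, chr15:58972526-58972552, minus strand, exon 4 of 15: cggGAGatcggctcagctctcaccaga
Nmnat2 codon 59, chr1:153073874-153074687, plus strand, exons 2 to 3 of 11: tacggaaaacagggccttgtgtcaagt
Actr3 codon 337, chr1:125397161-125397187, minus strand, exon 10 of 12: cgtcgtttgcaaagaGATttgaagaga
Prkca codon 162, chr11:108054006-108054032, minus strand, exon 5 of 17: aagagggggcggatttatctgaaggct
Slc6a11 codon 109, chr6:114134670-114134696, plus strand, exon 2 of 14: ctggggcagttcacgagcGAGggtggc
Golga7b codon 109, chr19:42266998-42267024, plus strand, exon 4 of 5: tacatccagGAGcagaatGAGaaggtc
Zfp871 codon 547, chr17:32774547-32774573, minus strand, exon 4 of 4: tccctacagagacatGAAaagactcac
Hdac11 codon 167, chr6:91167878-91168832, plus strand, exons 6 to 7 of 10: aagttcctgtttGAAcgcgtgGAAggc
Taf1 codon 289, chrX:101542542-101542568, plus strand, exon 6 of 39: aagaagcaccgtGAGcttatacagGAA
Ice1 codon 806, chr13:70605536-70605562, minus strand, exon 13 of 19: ctaacagctatgcatggaccttctgga
Rab39b codon 194, chrX:75574629-75574655, minus strand, exon 2 of 2: aagagtggatttgtaccaaatgttgtt

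Acidic codons lay in 11 of the 15 windows, and the letters AGGA or TGGA, searched on the mRNA strand in any frame, in 8. Acidic codons made up 12.8% of all codons in the coding sequences with a site, so a window of 9 codons often holds one. The share over all windows of this length was not counted, so neither count is a result about these 15 sites. The 3 further windows come from genes with many sites and were chosen after their sequences were seen, because they hold the most acidic codons among those sites, with 6, 5 and 5 of 9.
Unc13a codon 327, chr8:71658573-71658599, minus strand, exon 10 of 44: ctgGAGGACctgGAGGACctgGAAGAT
Tanc2 codon 605, chr11:105867215-105867241, plus strand, exon 13 of 26: GAAGAGaatGAAgccataGACcagGAC
Tgs1 codon 146, chr4:3585548-3585574, plus strand, exon 4 of 13: aatGACtatGAAGAAGATGACcttgta

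Over all 730 sites in coding sequence, the surroundings were only slightly richer in acidic codons than the mRNAs they came from. In the 11 codons centred on the peak middle, 13.6% of 7972 codons started with GA, against 12.8% of all codons of the same coding sequences. At the middle codon itself the share was 18.4% (134 of 730). Shared sites gave 14.0% in the window, 13.0% in their coding sequences and 15.2% at the middle codon. Sites without any fraction 5/6 peak within 30 nt reached 14.8%, with 12.6% in their coding sequences. These shares are descriptions, since sites of 1 mRNA share its composition, and the difference between absent and shared sites was not tested.

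**Figure D1:**
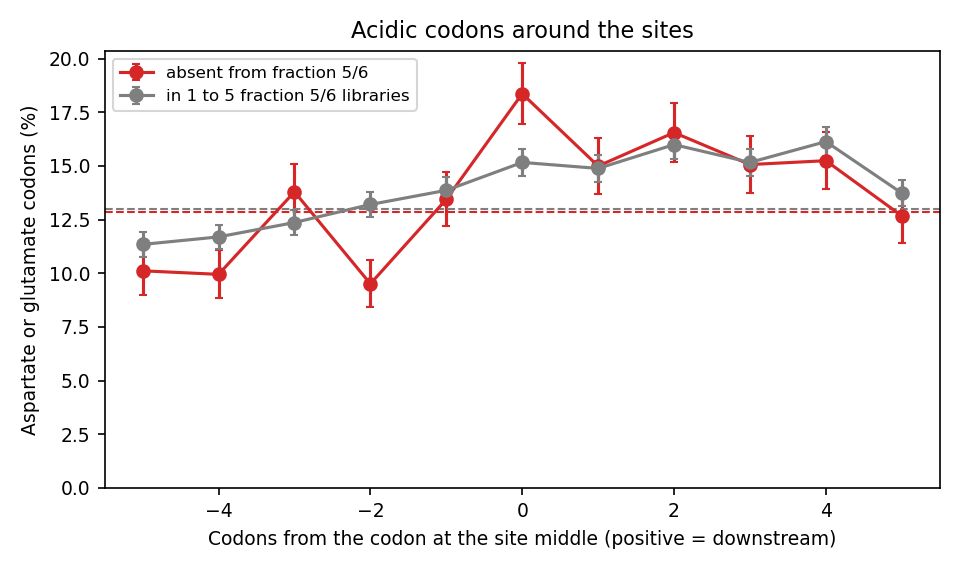
Share of codons starting with GA (percent, vertical axis) at each codon from 5 before to 5 after the peak middle (horizontal axis) for sites absent from fraction 5/6 and for shared sites, with binomial standard errors and dashed lines for the share over all codons of the same coding sequences. Absent sites were at 18.4% at the middle codon and 9.50 to 16.6% at the others.

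A short motif search gave a similar picture. AGGA or TGGA occurred in 345 of 730 windows of 35 nt around the sites (47.3%), and in 40.6% of all windows of that length in the same coding sequences. For shared sites the shares were 47.0 and 40.8%, and for sites with no fraction 5/6 peak within 30 nt they were 52.1 and 40.3%. Mean GC content was 50.7% around the sites and 51.8% over all windows. Of the 61 sense codons, counted after the acidic codons had been seen, CGA for arginine had the highest ratio, with 107 codons or 1.34% of those in the windows against 0.749% in the coding sequences (ratio 1.79, and 1.33 at shared sites). AAG for lysine stood at a ratio of 1.37 (1.32 at shared sites), ACG for threonine at 1.42 (1.17) and GGG for glycine lowest at 0.77 (0.90). A motif match or codon share in a window says nothing of what bound there.

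The 15 sites with a peak in all 6 pellet libraries spanned tall and very low peaks. Peak height is the read coverage in the deposited peak file, so it rises with the depth of a library, and its percentile within the library is given beside it. The tallest lay in Rab5c, a small GTPase of early endosomes, with heights of 94, 72 and 56 in the WT libraries and 93, 48 and 48 in the FMR1-KO libraries. Mapre1 codes for EB1, a protein of growing microtubule ends, and its site measured 96, 68 and 42 in WT and 77, 54 and 56 in FMR1-KO. These were the only 2 of the 15 with a median percentile above 90, at 95.4 and 94.9. In both, the first library of each genotype was highest and the genotypes overlapped.

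Apc2 codes for a neuronal relative of the adenomatous polyposis coli protein that binds microtubules. Its site, at codon 1577 of 2303, measured 43, 20 and 32 in WT and 49, 23 and 36 in FMR1-KO, and was the tallest pellet peak on the transcript in the median library. Its nearest fraction 5/6 peak lay 2864 nt away, whereas 11 of the 15 sites had one at 12 nt or nearer. Mtss1, an actin and membrane binding protein, measured 46, 28 and 16 in WT and 38, 31 and 33 in FMR1-KO at codon 77. Nmnat2, the axonal enzyme of NAD synthesis, measured 54, 26 and 21 in WT and 28, 23 and 29 in FMR1-KO at codon 59. The first WT library was the highest for Mtss1 and Nmnat2.

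Actr3, a subunit of the Arp2/3 complex that branches actin, measured 35, 21 and 19 in WT and 23, 17 and 16 in FMR1-KO. Prkca, protein kinase C alpha, measured 38, 18 and 17 in WT and 26, 12 and 14 in FMR1-KO. They lay at percentiles 73.3 and 65.9, in the range of an ordinary called peak.

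Slc6a11, a GABA transporter found in astrocytes, measured 18, 15 and 18 in WT and 10, 14 and 19 in FMR1-KO. Golga7b, a partner of protein palmitoylation, measured 21, 15 and 14 in WT and 22, 16 and 16 in FMR1-KO. The zinc finger gene Zfp871 measured 23, 11 and 11 in WT and 24, 12 and 21 in FMR1-KO, and the deacetylase gene Hdac11 measured 22, 17 and 12 in WT and 13, 12 and 8 in FMR1-KO. Heights in these 4 genes were close to the median over all called peaks, which was 14 or 15 in each pellet library.

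Taf1, the largest subunit of the general transcription factor TFIID, carried a site at codon 289 with 20, 7 and 9 in WT and 9, 12 and 13 in FMR1-KO, and no fraction 5/6 library held any peak on its transcript. Ice1, a scaffold of snRNA transcription, measured 15, 2 and 7 in WT and 10, 3 and 3 in FMR1-KO. Rab39b, a neuronal small GTPase, measured 14, 2 and 1 in WT and 7, 15 and 1 in FMR1-KO. These 3 sites had median percentiles of 22.1, 8.4 and 6.6, so a recurrent position was not always a tall one. In all 15 sites the heights of the genotypes overlapped.

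**Figure D2:**
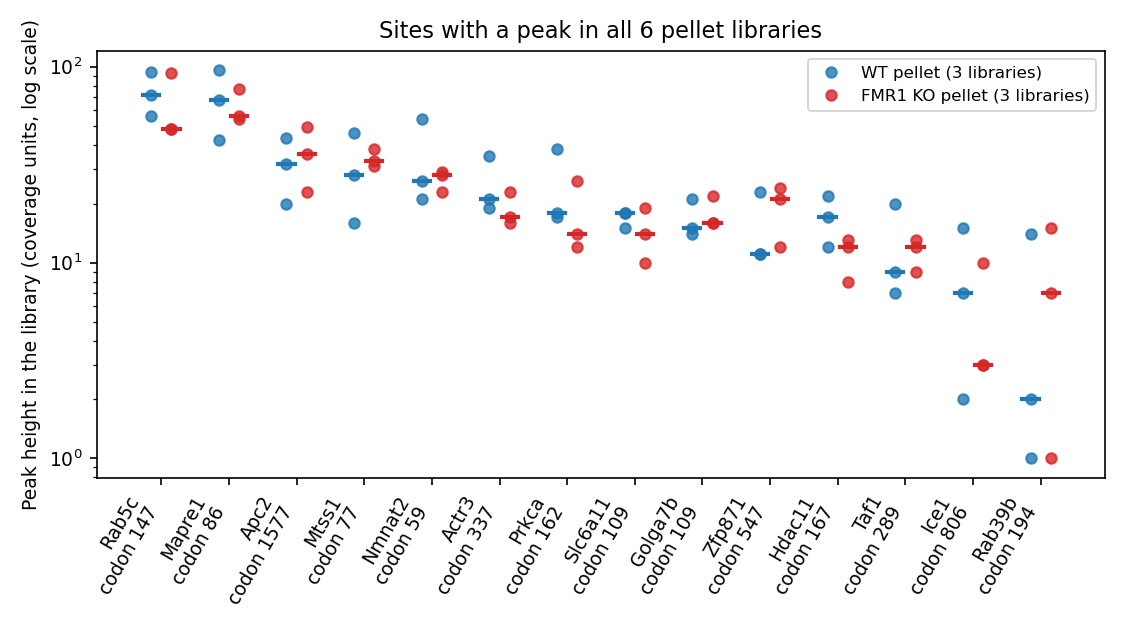
Peak height (read coverage, log axis) in each of the 3 WT and 3 FMR1-KO pellet libraries at 14 of the 15 sites with a peak in all 6 libraries, named by gene, with bars at the median of each genotype. Heights run from 96 at the Mapre1 site to 1 at the Rab39b site, and points of the genotypes overlap at each site.

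Most sites just met the number of libraries required. A peak was called in 4 pellet libraries at 609 sites (81.5%), in 5 at 123 (16.5%) and in 6 at 15 (2.01%), while the shares at shared sites were 60.2, 26.6 and 13.2%. By genotype, 352 sites had a peak in 2 WT and 2 FMR1-KO libraries, 150 in 3 WT and 1 FMR1-KO, and 107 in 1 WT and 3 FMR1-KO. The first WT library held a peak at 629 sites (84.2%) and the second FMR1-KO library at 410 (54.9%), and these were the pellet libraries with the most and the fewest called peaks. The sites were started from the first library of each genotype, which raises the share in these libraries.

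The sites were low compared with the shared ones. The median over sites of the median height was 17 at absent, 26.5 at shared and 64.5 at the shared sites with a peak in all 5 fraction 5/6 libraries. In percentiles within a library the medians were 59.4, 81.2 and 94.8. Only 46 absent sites (6.16%) reached a median height of 50, against 25.0% of shared sites, and 80 (10.7%) were the tallest peak on their transcript in the median library, against 19.8%. At 308 sites the pellet heights spanned no more than 2-fold from the lowest to the highest library. Since a low peak is more easily missed in a shallower library, height and absence are tied, and their separate parts were not tested.

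**Figure D3:**
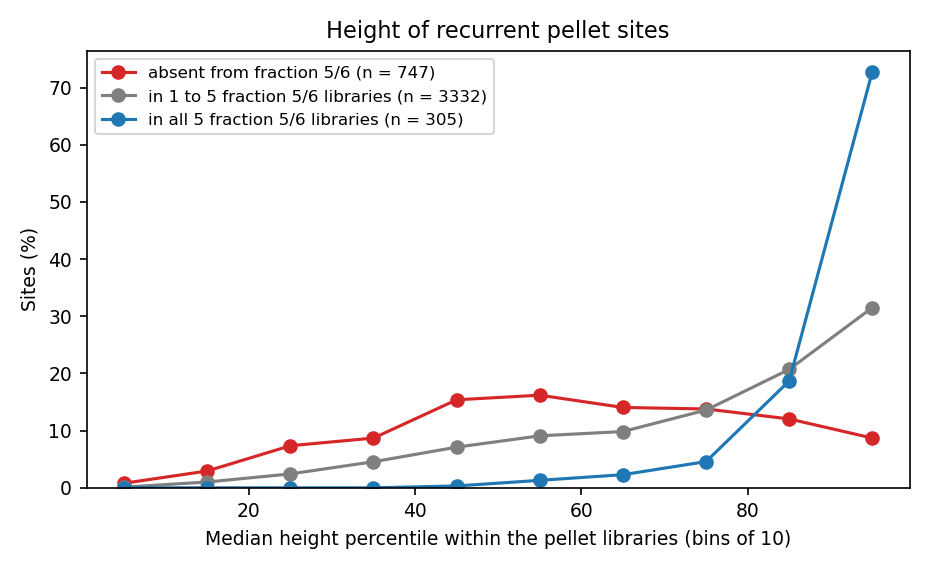
Share of sites (percent, vertical axis) in steps of 10 of the median height percentile within the pellet libraries (horizontal axis) for absent sites, shared sites and sites shared by all 5 fraction 5/6 libraries. Absent sites were most common at percentiles 50 to 60 (16.2%), whereas 72.8% of the sites shared by all 5 lay above percentile 90.

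Some sites were tall exceptions. Dstn, an actin depolymerizing factor, measured 263, 245 and 135 in WT and 190 in FMR1-KO replicate 3 at codon 154 of 165. Hectd4, a very large ubiquitin ligase, was the tall exception among long mRNAs, with 179 and 101 in the first 2 WT libraries and 187 and 124 in FMR1-KO replicates 1 and 3 at codon 3847 of 4418. Both sites had no called peak in 2 pellet libraries. The nearest called peak of the lighter polysome fraction lay 8.5 nt from the Dstn site and 16.5 nt from the Hectd4 site.

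Many sites lay close to a fraction 5/6 peak. Where a fraction 5/6 peak was present, it lay a median of 10.5 nt from the site, and 414 sites (median percentile 64.0) had one at 12 nt or nearer. Just inside the limit of 6 nt, 7 sites had a peak over 6 and up to 12 nt away in all 5 fraction 5/6 libraries, among them Mllt11 codon 40 (median height 134), the neuronal transcription factor gene Sox11 at codon 66 (94.5) and Ndrg3 codon 316 (76). On the other side of the rule, by the number of fraction 5/6 libraries and not by distance, Stmn2 codon 120 (median pellet height 632.5), Ywhag codon 34 (519.5) and Marcks codon 56 (345) each had a peak in 1 of the 5 fraction 5/6 libraries, FMR1-KO replicate 3, with heights of 435, 322 and 248 and at 3 to 3.5 nt from the site. The Marcks site had a peak of 529 in the left-out WT replicate 3 as well. In all, 953 shared sites (28.6%) had a peak in only 1 of the 5 fraction 5/6 libraries, and 94 absent sites lay within 6 nt of a shared recurrent middle.

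Farther from the limit, 160 sites had their nearest fraction 5/6 peak over 12 and up to 30 nt away, 134 had it over 30 nt away, and 39 (5.22%) lay on 27 transcripts on which none of the 5 libraries held a peak. In contrast, 436 sites (58.4%) were on transcripts with peaks in all 5. Taking the rule the other way round, 98 of 2468 middles that recurred in at least 4 fraction 5/6 libraries (3.97%) were absent from all 6 pellet libraries, against 956 of 5757 (16.6%) for the sites described here. These shares rest on unequal rules, with 4 of 5 libraries and absence from 6 in the reverse and 4 of 6 and absence from 5 in the forward direction, and on more called peaks in the pellet, so their difference is not a result. Absence over 3 libraries was also common within the pellet, a comparison added after the data had been seen. Of 1833 middles with a peak in all 3 WT pellet libraries, 382 (20.8%) had none in the 3 FMR1-KO ones, and of 1440 with a peak in all 3 FMR1-KO libraries, 286 (19.9%) had none in WT. For the same 1440, 360 (25.0%) had no peak in the 3 FMR1-KO fraction 5/6 libraries.

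The sites lay almost entirely in coding sequence, with 730 of 747 there, 6 in a 5′UTR and 8 in a 3′UTR, while 2 had no gene model and 1 lay past the end of its model. They were sparse at the start of coding sequences. The first 50 codons held 40 sites (5.48%), although those codons make up 11.3% of the same coding sequences on average. Shared sites were nearer to their background there, with 13.7% against 16.8%. All 66166 coding middles of the first WT and FMR1-KO pellet libraries gave 6.72% against 10.9%. The last 50 codons held 114 absent sites (15.6%), 22.6% of the shared sites and 13.8% of all coding middles. With coding sequences cut into 10 equal bins, the first bin held 37 absent sites (5.07%) and the last 99 (13.6%).

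**Figure D4:**
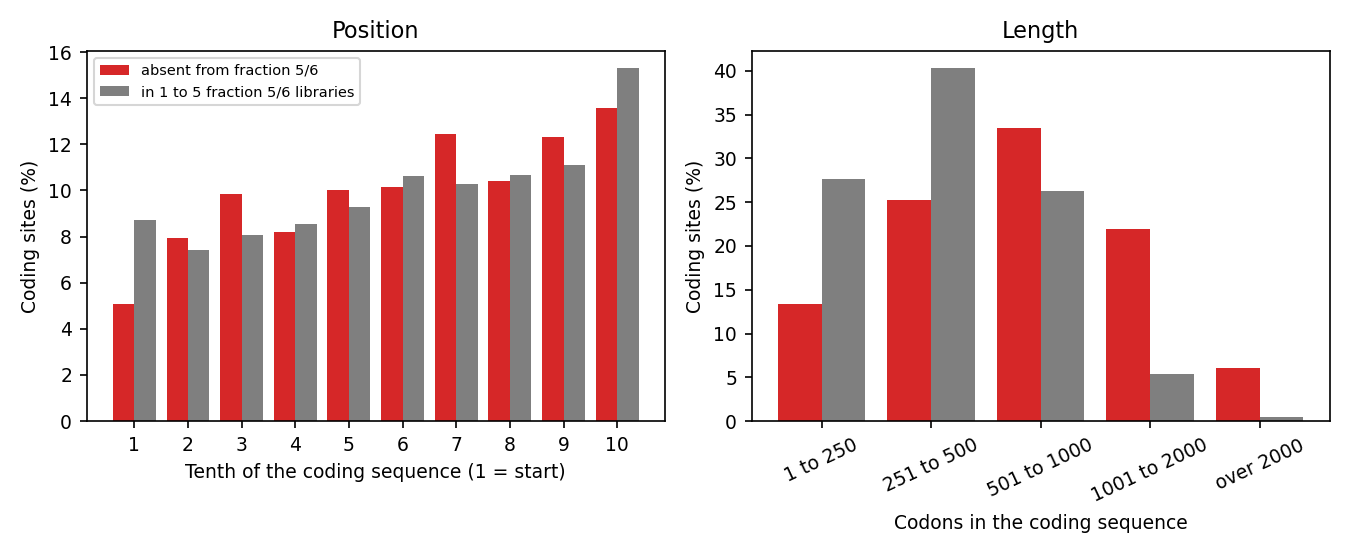
Share of sites (percent, vertical axis) in each of 10 equal bins of the coding sequence from start to stop (horizontal axis) for absent and shared sites. The first bin held 5.07% of absent and 8.72% of shared sites, and the last bin 13.6 and 15.3%.

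The mRNAs with absent sites were long. The median coding sequence over sites was 615 codons, against 376 for shared sites and 268 for those shared by all 5 fraction 5/6 libraries. Coding sequences of 1001 to 2000 codons held 160 absent sites (21.9%) and longer ones 44 (6.03%), whereas these shares were 5.39 and 0.467% at shared sites. The genes did not stand out from the shared ones in mRNA level, with a median of 115 CPM in total RNA against 122 CPM for genes with a shared site and 29.6 CPM over all genes tested in the pellet. Of the 588 genes, 358 (60.9%) also had a shared site.

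A total of 112 genes had at least 2 sites, which held 271 of the 747. Tanc2, a large postsynaptic scaffold protein, had the most with 8, between codons 118 and 755 of 1994, and no shared site. Its tallest, at codon 755, measured 43, 22 and 34 in WT and 29 and 9 in FMR1-KO replicates 1 and 2, with none in replicate 3, and its nearest fraction 5/6 peak was 222.5 nt away. The acidic site at codon 605 shown above measured 35, 22 and 18 in WT and 13 in the second FMR1-KO library. Only 3 of the 5 fraction 5/6 libraries held any peak on Tanc2.

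Unc13a, the vesicle priming protein Munc13-1 of the active zone, had 6 sites between codons 327 and 1671 of 1712 and no shared site. The site at codon 327, in the acidic run shown above, measured 10 and 18 in WT replicates 2 and 3 and 17 and 13 in FMR1-KO replicates 1 and 3. The tallest in percentile, at codon 1671, measured 32, 23 and 27 in WT and 30 in the first FMR1-KO library. Fraction 5/6 peaks on Unc13a came from 2 libraries, and the nearest lay 886.5 and 1037.5 nt from these 2 sites. In gene counts Unc13a stood at 105 to 310 CPM in the 5 standard fraction 5/6 libraries and at 244 to 627 CPM in the standard pellet.

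Myh9, the heavy chain of nonmuscle myosin IIA, had 5 sites between codons 755 and 1803 of 1960, and its transcript had no peak in any of the 5 fraction 5/6 libraries. Heights ran from 10 to 26, with the highest at codon 1505 (26 in the first WT library) and codon 1803 (26 in the first FMR1-KO library). Ago2, the argonaute protein of RNA silencing, also had 5 sites but 6 shared ones beside them, and heights from 1 to 26. The genes with 4 sites each were Dnajc6 (auxilin, which uncoats clathrin vesicles), Efr3b, Epas1 (the transcription factor HIF2A), Hook3 (an adaptor of dynein), Kif1b (a kinesin of axonal transport) and Tgs1 (an enzyme that further methylates the cap of snRNAs). Of these 6 only Dnajc6 had no shared site. By contrast Tubb2b, a beta tubulin with 6 shared sites, had no absent site.

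The low nuclease libraries, which the rule did not use, allowed a test of whether the genes with a site differed between pellet and fraction 5/6. Over all 15895 genes tested with edgeR's quasi-likelihood test, 19.4% were higher in the pellet and 23.8% lower at an adjusted p under 0.05. Of the 588 genes with a site, 205 (34.9%) were higher and 171 (29.1%) lower, 71.1% had an unadjusted p under 0.05 against 51.1% of all genes, and the site genes had a median log2 fold change of 0.06 against -0.05 over all genes. Site genes also had more total RNA, a median of 115 CPM against 29.6 CPM over all genes tested in the pellet. How far this level raised the share called was not tested. Genes with only shared sites had 131 higher (10.7%) and 636 lower (51.8%), with a median of -0.27. Scaling by library size alone moved the median of all genes by -0.15 and turned the split of the site genes to 174 higher (29.6%) and 249 lower (42.3%), against 13.8% and 34.8% of all genes, while the median of the site genes remained 0.10 above that of all genes, against 0.11 before. This gap was 0.05 with WT libraries alone, 0.06 without FMR1-KO pellet replicate 1 and 0.07 without FMR1-KO fraction 5/6 replicate 2. The gene counts hold no position, so they bear on the genes and not on the sites.

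The direction went with how far a site was from a fraction 5/6 peak. Among genes with a site at 12 nt or nearer, 24.0% were higher in the low nuclease pellet and 36.8% lower. With the nearest peak over 12 and up to 30 nt away, 38.5% were higher and 21.6% lower, and over 30 nt away 71.3% were higher and 8.33% lower (median 0.78). Of the 27 genes without any fraction 5/6 peak, 25 (92.6%) were higher and 0 lower, with a median of 1.82. The other 2, Atad2b and Hmgcll1, did not pass the test. A gene with few fraction 5/6 footprints has few fraction 5/6 peaks, so the distance classes and the counts are linked through the gene's level in the fraction.

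It also went with length. Of the 89 site genes of up to 250 codons, 0 were higher and 75 lower. At 251 to 500 codons 11 of 165 were higher, at 501 to 1000 codons 84 of 183 (45.9%), at 1001 to 2000 codons 77 of 110 (70.0%), and above 2000 codons 30 of 31. Genes with only shared sites followed the same order, from 2 of 403 to 28 of 47 and 5 of 7. In a split added after the data had been seen, genes with a site that had no fraction 5/6 peak within 30 nt were set against the other site genes of their length class. Higher were 28 of 39 (71.8%) against 56 of 144 (38.9%) at 501 to 1000 codons and 45 of 54 (83.3%) against 32 of 56 (57.1%) at 1001 to 2000 codons. Above 2000 codons 26 of 26 against 4 of 5 were higher. In the shorter classes the counts were 1 of 12 against 10 of 153 at 251 to 500 codons (median -0.39 against -0.16) and 0 of 2 against 0 of 87 at up to 250 codons (median -0.58 against -0.44). The difference between these classes was not tested.

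**Figure D5:**
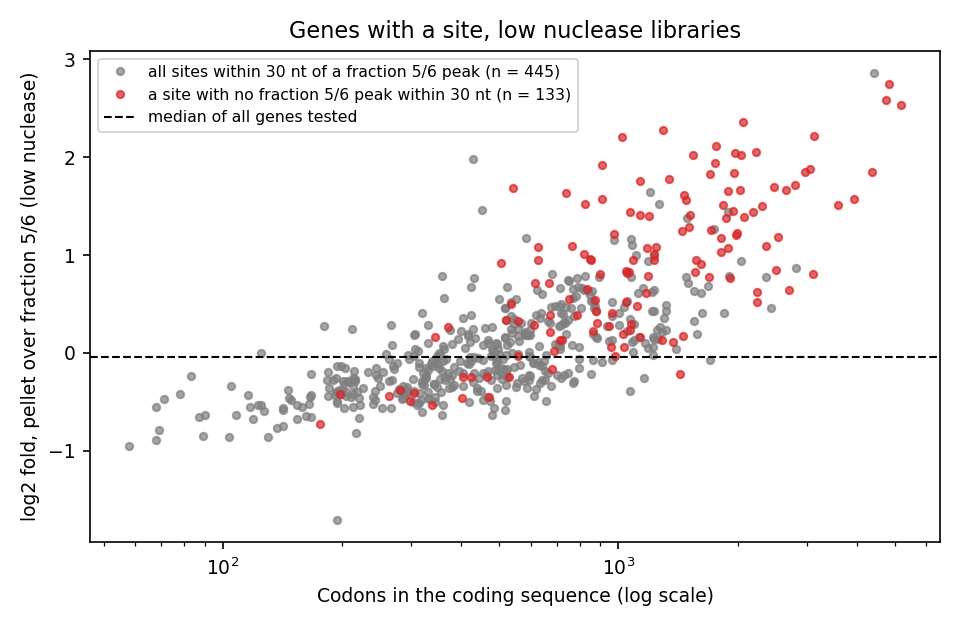
Low nuclease log2 fold change of pellet over fraction 5/6 (vertical axis) against the number of codons (horizontal axis, log scale) for genes with an absent site and a gene model, in red those with a site that had no fraction 5/6 peak within 30 nt (133) and in grey the others (445), with the dashed line at the median of all genes tested (-0.05). Genes of up to 250 codons lie mostly below the line and 30 of 31 genes above 2000 codons were called higher.

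Among the genes called higher, those with the greatest rise in the low nuclease pellet were giant proteins, 4 of them ubiquitin ligases. Hectd4 stood at 741, 863 and 817 CPM in the WT pellet libraries and 70.5, 115 and 98.0 CPM in the WT fraction 5/6 libraries, a log2 fold change of 2.86 ± 0.16 (SE) over both genotypes (edgeR adjusted p = 1.3e-06). Herc2 stood at 356, 377 and 403 CPM in the WT pellet and 43.2, 55.9 and 57.6 CPM in WT fraction 5/6 (2.74 ± 0.12, edgeR adjusted p = 5.0e-07). Mycbp2, known for its role in axon development, stood at 403, 441 and 430 CPM against 53.5, 74.4 and 74.8 CPM (2.58 ± 0.12, edgeR adjusted p = 5.0e-07). In these 3 genes each pellet library, of either genotype, was above each fraction 5/6 library.

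Ubr4, a ligase of the N-degron pathway, stood at 456, 533 and 502 CPM in the WT pellet against 82.8, 88.2 and 72.2 CPM (2.54 ± 0.11, edgeR adjusted p = 5.0e-07), and Fry, a large scaffold protein of cell polarity, at 422, 479 and 443 against 58.5, 84.9 and 67.1 CPM (2.47 ± 0.13, adjusted p = 1.3e-06). Herc2, Mycbp2, Ubr4 and Fry had no fraction 5/6 peak on their transcripts, and their sites were low, with heights of 1 to 35. The site in Hectd4 was the exception, as given above. In gene counts Ubr4 still stood at 31.2 to 1088 CPM in the 5 standard fraction 5/6 libraries and at 383 to 1874 CPM in the standard pellet. Its log2 fold change over these libraries, which the rule used, was 0.73 ± 0.81. For Herc2, Mycbp2 and Fry it was 3.86, 3.64 and 2.48.

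Among the genes called lower, those with the greatest fall coded for very small proteins. Atp5mpl, a subunit associated with the mitochondrial ATP synthase, stood at 26.7, 14.5 and 19.5 CPM in the WT pellet and 52.1, 31.8 and 29.5 CPM in WT fraction 5/6 (-0.95 ± 0.18, edgeR adjusted p = 0.0018). Atox1, a copper chaperone, fell by 0.89 ± 0.17 (edgeR adjusted p = 0.0020), Ndufb3, a subunit of complex I, by 0.86 ± 0.11 (adjusted p = 2.5e-04), and Dynll1, a light chain of dynein, by 0.84 ± 0.14 (adjusted p = 7.9e-04), all on the log2 scale. H2ac21, a replication-dependent histone H2A gene named Hist2h2ab in the gene models, fell by 0.85 ± 0.18 (edgeR adjusted p = 0.0036). Histone genes have near-identical copies among which reads can be split, so its value is uncertain.

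Among the genes with most sites, Tanc2 was at 254, 303 and 286 CPM in the low nuclease WT pellet and 115, 134 and 108 CPM in WT fraction 5/6 (1.22 ± 0.08, edgeR adjusted p = 4.1e-06). Unc13a was at 308, 320 and 326 against 133, 155 and 109 CPM (1.26 ± 0.11, edgeR adjusted p = 1.4e-05), and Myh9 at 117, 105 and 123 against 25.0, 26.8 and 23.7 CPM (1.83 ± 0.19, adjusted p = 4.2e-05). Kif1b (1.17 ± 0.11), Efr3b (1.01 ± 0.10), Tgs1 (0.95 ± 0.13), Dnajc6 (0.81 ± 0.11) and Epas1 (0.48 ± 0.10) also rose. Hook3 at 0.28 ± 0.11 and Ago2 at 0.23 ± 0.13 did not pass, with adjusted p of 0.060 and 0.18 in edgeR. Of the 15 genes with a site in all 6 pellet libraries, 7 rose, with Apc2 highest at 1.50 ± 0.12, and 4 fell, among them Rab5c at -0.27 ± 0.07 and Mapre1 at -0.28 ± 0.10. The Mapre1 call was lost when any of 9 of the 12 libraries was left out.

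Groups of genes named by function held unequal shares of the sites. Ubiquitin ligases and related genes had 32 sites in 21 genes, or 4.28% of the sites, against 1.86% of shared sites, with 3 sites each in Huwe1, Ubr1 and Ubr3. Of these 21 genes, 14 rose in the low nuclease pellet and 3 fell, while over the whole list 71 of 241 rose and 55 fell. The Huwe1 sites at codons 1828, 1982 and 3206 of 4378 had heights from 4 to 26 and the transcript had no fraction 5/6 peak, and Huwe1 rose by 1.84 ± 0.13. Motor proteins had 16 sites in 8 genes (2.14%, against 1.17% of shared sites), with 5 in Myh9 and 4 in Kif1b, and 5 genes were higher and 1 lower, with 46 and 18 of 130 over the whole list. Synaptic vesicle and active zone genes had 17 sites in 10 genes (2.28%, against 1.50%), including 6 in Unc13a and 2 in Bsn, the giant scaffold Bassoon, with 3 genes higher and 3 lower, and 26 and 36 of 111 over the whole list.

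Other groups held a smaller share of absent than of shared sites. Cytosolic ribosomal proteins had 3 sites (0.402%), in Rpl3, Rpl10 and Rpl35, against 3.15% of shared sites, and all 3 genes fell in the low nuclease pellet, by 0.46 to 0.56, as did 74 of 95 genes of the whole list (median -0.62). RNA-binding proteins and helicases had 21 sites in 18 genes (2.81%, against 6.30%), with 2 genes higher and 6 lower, and 16 and 73 of 176 over the whole list. Tubulins and microtubule-associated proteins had 7 sites (0.937%, against 2.82%), and actin and its regulators 9 (1.20%, against 2.58%). Vesicle traffic genes and small GTPases had 36 sites in 31 genes (4.82%, against 5.94%), and chromatin and transcription genes 31 in 25 (4.15%, against 4.32%), including 3 in Atrx, a chromatin remodeller that rose by 1.69 ± 0.18. The lists matched genes by symbol, so a few members stand in them by name alone, such as the lyase gene Hmgcll1 among the chromatin genes. The lists differ in the length of their genes, with a median of 214 codons over the ribosomal protein sites, 1757 over the ubiquitin ligase sites and 1816 over the motor protein sites, and the shares were not tested.

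Of the sites outside coding sequence, the highest by percentile in each UTR are given here. In the 5′UTR, Trio, a guanine nucleotide exchange factor of axon growth, measured 18 and 20 in the first 2 WT libraries and 32 and 24 in FMR1-KO replicates 1 and 3, and Bsn measured 24 and 15 in WT and 29 and 15 in FMR1-KO in the same libraries. The transcript Gm42372 had a site there as well, with heights of 15 to 27. In the 3′UTR, Gm38393 measured 43 and 17 in WT and 42, 18 and 41 in FMR1-KO (median percentile 89.4), Acat3 had heights of 24 to 35 and Lrrc58 of 18 to 43. In the first 50 codons the tallest sites were in Mllt11 at codon 40 of 90 (82 to 216), Nrep at codon 41 of 68 (59 to 177), which also lies in the last 50 codons, and Smap1 at codon 22 of 440 (37 to 70), and near the stop Cdk5r1, the p35 activator of Cdk5, at codon 289 of 307 (109 to 162) followed Dstn.

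The genotype comparison asks whether the loss of FMRP moved these genes or sites within the pellet. The rule did not treat the genotypes alike, since absence was required in 2 WT and 3 FMR1-KO fraction 5/6 libraries and the starting libraries held 36435 called peaks in WT and 31883 in FMR1-KO. For gene counts, edgeR called 0.015% of 13356 genes lower in FMR1-KO, which were Fmr1 (-3.72) and Wdfy1, and 0% higher. Of the 588 genes with a site, edgeR called 0 higher and 0 lower, and 22 (3.74%) had an unadjusted p under 0.05, against 5.29% of all genes. DESeq2 called 1 site gene (0.170%) in each direction, against 0.344% of all genes higher and 0.15% lower. On library size alone edgeR called 2 site genes (0.340%) higher and 0 lower, against 1.27% and 0.883% of all genes. The gene nearest to a call was Pcsk1n, the proprotein convertase inhibitor proSAAS, at 27.4, 56.8 and 44.2 CPM in FMR1-KO and 8.01, 8.64 and 11.3 CPM in WT, where the genotypes did not overlap (log2 fold change 2.21 ± 0.30, unadjusted p = 2.4e-04, edgeR adjusted p = 0.29, DESeq2 adjusted p = 1.8e-11). Nav1, a microtubule guidance protein called lower by DESeq2, stood at 350, 284 and 398 CPM in FMR1-KO and 1179, 1132 and 422 CPM in WT. Hip1r, a clathrin and actin linker called with library size alone, rested on the second FMR1-KO library at 1023 CPM, with the other 5 pellet libraries at 31.3 to 42.8 CPM.

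Peak heights were compared between genotypes only where both had called peaks. The heights come from the pellet peak files that chose the sites, and a site needed a peak in at least 4 of the 6 libraries, hence in at least 1 of each genotype, so a site with peaks in 1 genotype alone could not enter. Libraries without a peak at a site were left out, so low heights are missing and a lack of calls cannot show that heights were unchanged. A limma test on log2 height, each library centred on the median of sites with a peak in all 6, took in 3015 recurrent sites, of which 0.0663% were called higher in FMR1-KO and 0% lower. Of the 487 absent sites with enough peaks in both genotypes, the test of height called 0 in either direction, and 12 (2.46%) had an unadjusted p under 0.05, against 4.91% of all sites. The median log2 difference at these sites was 0.01 and the median SE 0.42, so for a typical site a change of 2-fold would lie little more than 2 SE from 0. The lowest unadjusted p of a named site was at Sox11 codon 66, where the peak measured 96 and 37 in WT replicates 1 and 3 and 176 and 93 in FMR1-KO replicates 1 and 3 (1.07 ± 0.28, limma unadjusted p = 0.0012, adjusted p = 0.92). At this site the genotypes overlapped, and Tanc2 codon 755 at -0.81 ± 0.36 was the next of the named sites (limma unadjusted p = 0.034).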

How the data were processed

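The members and the gene lists were chosen with earlier results of these data known. Per the labels and the study's methods, the authors trimmed reads with cutadapt 2.10, removed ribosomal reads with Bowtie2 2.3.5, aligned to GRCm38 with STAR 2.7.8a, removed duplicates with Picard and SAMtools 1.19.2, and deposited raw counts per gene from featureCounts 2.2.0, the versions being those in the submitters' processing notes. The authors also deposited peak files for the 12 standard RPF libraries, with start, end and height (read coverage) on Ensembl transcripts. The methods describe peaks relative to the transcript average, but whether that limit was applied to these files is not stated. Removing duplicates without molecular identifiers can lower counts on short, deeply covered mRNAs.

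Peak middles were matched within 6 nt. Positions were taken as 1-based and may be off by 1 nt, so reading frame was not analysed. Gene models of GENCODE M21 matched 6230 of 6259 transcripts.

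Gene counts were tested with edgeR 4.0.16 in R 4.3.3 (TMM, filterByExpr, quasi-likelihood, protein-coding genes only, which were 16561 of 16614), with genotype as a covariate in the low nuclease fit, and log2 heights with limma 3.58.1, libraries without a peak or with a height of 0 at a site being left out there. DESeq2 1.42.0 was an alternative. Benjamini-Hochberg adjusted p under 0.05 over all genes or sites tested was a call. Scripts were tested on simulated data. CPM values in the fits are on TMM-scaled library sizes.

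Named were the 15 sites with most pellet libraries, the 10 genes with most sites, the 3 highest sites in each UTR and at each end of the coding sequence, the 5 site genes with the largest called change in each direction, and 3 sites just inside and 3 just outside the rule, besides members of gene lists and genes marked in the text as chosen after their values were seen. The genes of the lists named as examples, Dstn and Hectd4 among the tall sites, and Pcsk1n, Nav1 and Hip1r were picked with values in view. Sites on chromosome 18 have no sequence printed, and some named sites and genes are not reported here.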

Additional observations from a re-analysis of the deposited data

Results flagged for a closer look

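The library labelled WT fraction 5/6 replicate 3, which the rule left out and in which Fmr1 was at the FMR1-KO level, held a peak within 6 nt at 212 of the 747 sites (28.4%), with a median height of 16. It held a peak at 48.0% of shared sites and 79.7% of the sites shared by all 5 other fraction 5/6 libraries. Each other fraction 5/6 library, when left out in the same way, held a peak at 14.0 to 29.6% of the recurrent middles absent from the remaining 4, against 26.9% of the 956 middles for this library. The 535 sites absent from this library as well had a median percentile of 57.7 and a median coding length of 627 codons, and 163 of their 440 genes were higher in the low nuclease pellet and 124 lower.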

How the results depend on the processing

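The number of sites followed the rule closely. It was 372 with a match within 3 nt and 1280 within 12 nt. With at least 5 pellet libraries at the same middle it was 132, and with all 6 at the same middle 11. Counted over merged middles, 123 sites had a peak in 5 pellet libraries and 15 in 6. With only peaks at or above the median height of their library it was 398, and 266 with that limit in the pellet alone. Started from any pellet library it was 1231, and with all 6 fraction 5/6 libraries 548. Leaving out a pellet library gave 189 to 440 sites, since 4 of 5 libraries were then needed. It was lowest without WT pellet replicate 1 (189) and FMR1-KO pellet replicate 1 (227), where a starting library was lost as well, and 353 to 440 without the other pellet libraries. Leaving out a fraction 5/6 library gave 863 to 1051.

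In the low nuclease comparison, WT libraries alone called 130 site genes higher (22.1%, against 14.3% of all genes) and 71 lower (12.1%, against 8.60%), and FMR1-KO libraries alone 142 (24.1%, against 8.82%) and 73 (12.4%, against 11.8%), with 6 libraries in place of 12. Leaving out any 1 library gave 194 to 208 higher and 146 to 170 lower, with 2721 to 3494 and 3148 to 3833 of all genes. Whether the replicate numbers pair the samples is not settled, and the main fit did not use them. Deviations of same-numbered low nuclease pellet and fraction 5/6 libraries correlated at 0.38, 0.12 and 0.02 in FMR1-KO. In WT these values were 0.23, 0.07 and 0.21. Across genotypes the correlations ran from -0.13 to 0.30. With the replicate block 210 site genes were higher and 174 lower (21.1% and 24.2% of all genes), and the genotype comparison called 0 genes. Of the tests repeated for named genes, 622 kept direction and call, 33 lost the call, 9 gained it and 1 turned direction, which was Hdac11 with WT libraries alone (0.0226 against -0.35, neither passing).

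For gene counts between genotypes, library size alone called 2 site genes higher (Pcsk1n and Hip1r; 1.27% of all genes were higher), and DESeq2 called 1 higher (Pcsk1n) and 1 lower (Nav1), with 0.344% and 0.15% of all genes. Height tests, which could take in no site with peaks in 1 genotype alone, called 0 of the absent sites under all alternatives run. All of them used heights from the peak files that chose the sites, so they cannot show that heights were unchanged. With a peak called in 5 libraries only 11389 to 30153 times, absence from fraction 5/6 means no called peak and not no ribosomes.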

Other observations

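Among markers of single cell types, Slc1a3, the astrocyte glutamate transporter, had 2 sites, at codons 108 and 210 of 543, with heights from 12 to 28 and the nearest fraction 5/6 peaks 81.5 and 221.5 nt away. Hba-a1, an alpha globin gene of red blood cells, had 1 site at codon 126 of 142 with heights of 9 to 34. No marker of neurons, oligodendrocyte lineage, microglia or endothelium carried an absent site. The neuronal markers held only 1 shared site, and those of oligodendrocyte lineage, microglia and endothelium 0. The lack of absent sites in them therefore says nothing of cell type.

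At synapses, Camk2a, the alpha subunit of a calcium-dependent kinase, had sites at codons 190 and 289 of 478, with heights of 43 to 89 and a fraction 5/6 peak 7.5 and 6.5 nt away. Vamp2, a SNARE protein of synaptic vesicles, had a site at codon 85 of 116 measuring 124, 121 and 74 in WT and 85 in FMR1-KO replicate 3. Htt, the huntingtin gene, had 1 site at codon 1528 of 3120 with heights of 14 to 17, no fraction 5/6 peak on its transcript, and a rise of 2.22 ± 0.17 on the log2 scale in the low nuclease pellet.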
